A study of Mus musculus with 13 samples.

Results

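Cadherins and immunoglobulin-type adhesion molecules hold neighbouring cells together, and their make-up differs between mesenchymal, neural and epithelial cells. The 10 genes described here are the cadherins Cdh1, Cdh2, Cdh3, Cdh11 and Cdh13, the epithelial adhesion gene Epcam, the neural adhesion genes Ncam1, Nrcam and Alcam, and Thy1. They were chosen by name out of 54232 Ensembl gene IDs in the table, and all 10 were among the 17328 genes tested. Classical cadherins bind the same cadherin on the next cell in a calcium-dependent way and connect to actin through catenins. A shift between E-cadherin (Cdh1) and N-cadherin (Cdh2) is the textbook sign of a change between epithelial and mesenchymal states, and N-cadherin is the classical cadherin usually described in corneal endothelium. NCAM, NRCAM and ALCAM are best known from axon growth and nerve bundling, and Thy1 is a lipid-anchored surface protein widely used to mark fibroblasts and neurons.

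The RNA came from C57BL/6 mouse cells, embryonic fibroblasts that small molecules were used to turn into corneal endothelium, the cell layer that lines the inner face of the cornea. The starting fibroblasts, from embryos at E13.5, are D0 (3 libraries), and cells labelled chemically induced neural crest are D7 (3 libraries) and D12 (2 libraries), for days 7 and 12. Chemically induced corneal endothelial cells are P1 and P8 (2 libraries each), terms the labels leave unexplained, and primary corneal endothelial cells from mice at postnatal day 30 are pCEC (1 library). By the labels, all groups except pCEC derive from the fibroblasts, and this origin was not tested. The small molecules are not named in the labels, no gene was deleted or added, and RNA from every group was extracted with Trizol. Nothing states that replicates came from separate cultures, and the spread behind each p-value may therefore be technical. pCEC, with 1 library, also differs from the other groups in tissue and age, which cannot be told apart.

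Levels are FPKM, which are scaled by transcript length and by library total. The lengths are mostly means over annotated transcripts, so comparisons between genes depend on them. The gene IDs in the deposited table follow the rows of the D0 columns, and the genes of all other columns were inferred from row order and from whole read counts. The shallowest library, P1 replicate 2, had 9997865 reads and the deepest, D0 replicate 2, had 24030674. P8 replicate 2 stood apart. Its Spearman correlation over genes was 0.765 with P8 replicate 1 but 0.923 to 0.925 with the D0 libraries. Over 10 epithelial markers (keratins, desmosome genes and the like) the summed level was 8800 and 14900 FPKM in P1, 11800 in P8 replicate 1 and 6170 in pCEC, against 20.8 to 33.1 in D0, D7 and D12 and 26.1 in P8 replicate 2. Fibroblast markers summed to 3410 FPKM and macrophage markers to 838 in P8 replicate 2, against 68.8 and 57.6 in P8 replicate 1, and the macrophage sum was also high in D0 (1110 to 1180). Of the defining corneal endothelial genes in pCEC, Slc4a11 (a borate and proton transporter) stood at 6.63 FPKM and Aqp1 (a water channel) at 0.184, and Col8a2, a collagen of the endothelial basement membrane, at 0.0619, while Krt5 and Krt14, keratins of stratified epithelium, stood at 676 and 644. The label and these markers therefore differ, and the library is called pCEC here. In D7 and D12, labelled as neural crest, Foxd3 was at 0. Sox10 was lower there, at 0 to 0.48 FPKM against 1.61 to 2.19 in D0, while Tfap2a reached 19.7 against 0.894 in D0. Of the other neural crest markers listed, Sox9 was lower, at 0.403 to 0.721 FPKM against 6.79 to 7.43 in D0. Msx1 was higher, at 27.4 to 44 against 2.17 to 2.81, and so were Tfap2b, Ngfr and Pax3. The 8 markers summed to 16.1 to 16.7 FPKM in D0, 78.9 to 80.4 in D7 and 57.6 and 61 in D12.

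The 10 genes fell into separate patterns over the groups. Cdh1 and Epcam were near 0 through D12 and at 76.3 to 474 FPKM in P1, P8 replicate 1 and pCEC. Cdh2, Cdh11 and Thy1 were high in D0, D7 and D12 and low in P1, P8 replicate 1 and pCEC. Nrcam was high only in D7 and D12, with 8.59 FPKM in P8 replicate 2 the highest value elsewhere, and Cdh3 was low in those groups and high in D0, P1, P8 replicate 1 and pCEC. A gene was called changed at a Benjamini-Hochberg adjusted p under 0.05 over all genes tested (limma) and at least a 2-fold difference on the log2(FPKM + 1) scale, which understates the change of low genes. From D0 to D7, 4 of the 10 genes were called (25.2% of all genes tested were), and from D7 to D12 0 of 10 (0.704%), although Ncam1 reached an adjusted p of 0.0349 at a smaller difference. For that step 6 of 10, and 13.1% of all genes, were under an unadjusted p of 0.05 with limma, and voom on the recovered reads also called 0. From D12 to P1, 8 of 10 were called (32.8% of all genes), and 8 of 10 between P1 and D0 (24.8%). The comparisons share groups (D0, D7, D12 or P1 each enter several), so their values are not independent.

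**Figure D1:**
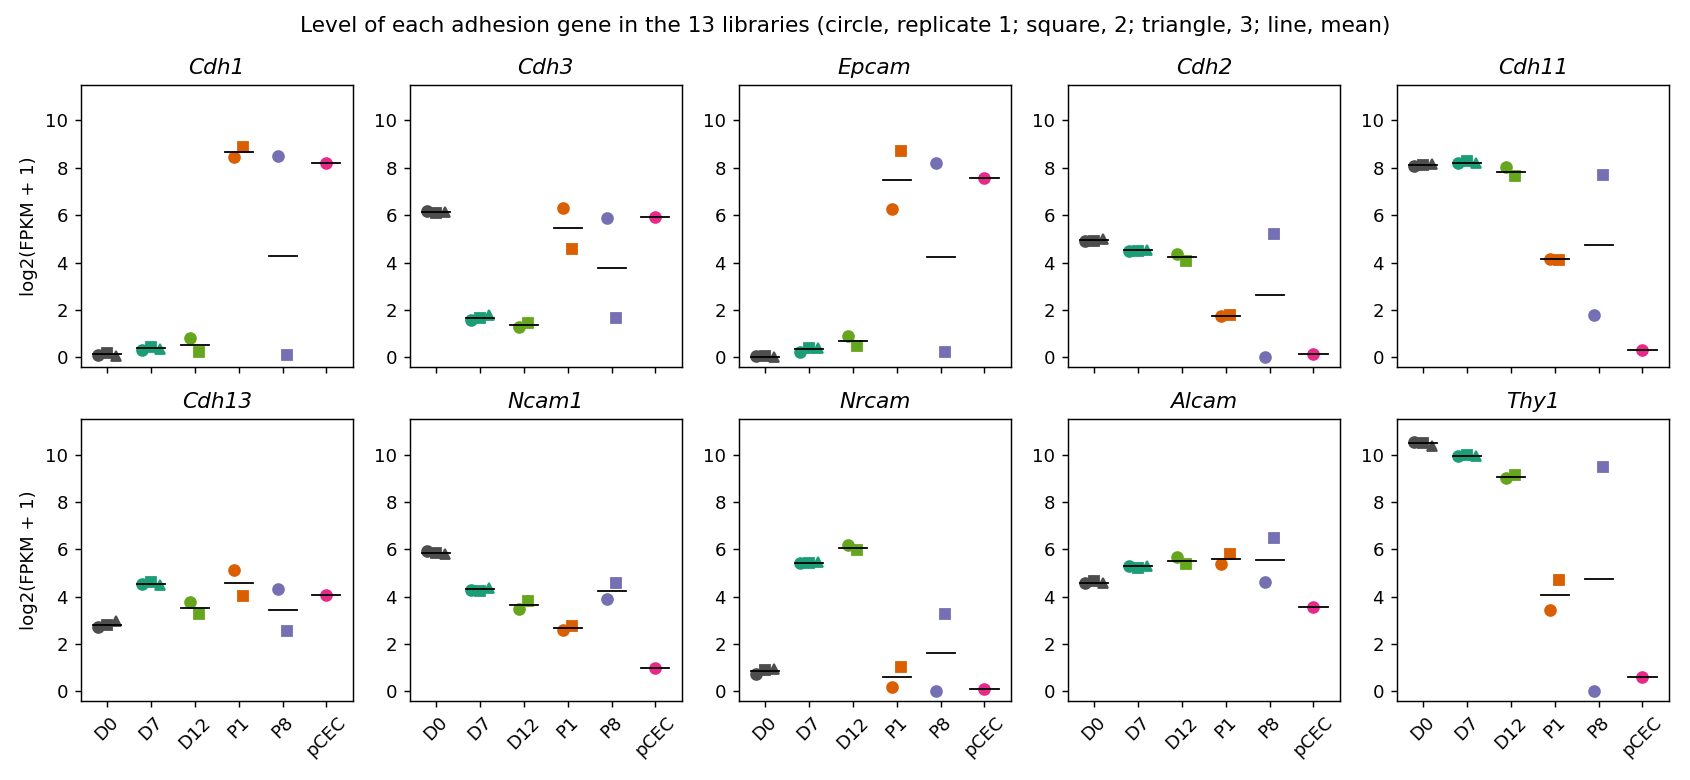
Level of each of the 10 genes, as log2(FPKM + 1), in the 6 groups. Each symbol is 1 library and lines are group means; the P8 libraries lie far apart for Cdh1, Cdh2, Cdh11, Epcam and Thy1, and P8 replicate 2 lies near D0, D7 and D12 for these genes.

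E-cadherin, the main cadherin of epithelia, appeared between D12 and P1. Cdh1 (ENSMUSG00000000303; chromosome 8, 106603351 to 106670246, plus strand, in GRCm38) stood at 0.0743, 0.148 and 0.0389 FPKM in D0, from 4, 10 and 2 reads. The D7 libraries held 0.247, 0.369 and 0.275 and the D12 libraries 0.742 and 0.182. It then reached 351 and 474 FPKM in P1, 358 in P8 replicate 1 and 295 in pCEC, but stood at 0.0644 in P8 replicate 2, from 4 reads. P1, P8 replicate 1 and pCEC are thus high, and every other library is below 1 FPKM. The mean rose from 0.462 ± 0.396 FPKM (SD, n = 2) in D12 to 412 ± 87.1 (n = 2) in P1, a log2 fold change of 8.15 (SE 0.21, adjusted p = 6.17e-08). The smaller values of D7 and D12 were not called against D0 and D7 (log2 fold changes 0.25 and 0.15, adjusted p = 0.235 and 0.932). Epithelial markers moved with Cdh1 over the same libraries, and their part in the result was not tested. In these bulk libraries, fewer cells of a type and less RNA per cell cannot be told apart.

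P-cadherin (Cdh3), which is found in basal layers of stratified epithelia, lies next to Cdh1 on the same strand (ENSMUSG00000061048; chromosome 8, 106510891 to 106557297). Unlike Cdh1 it was abundant in the starting fibroblasts, at 70.5, 67.2 and 69.2 FPKM. D7 gave 1.96, 2.16 and 2.4 FPKM, and D12 gave 1.4 and 1.74. D0 lies above both later groups with no overlap. It fell by 4.46 on the log2 scale from D0 to D7 (SE 0.36, adjusted p = 2.72e-05). P1 gave 78.2 and 23.1 FPKM, P8 gave 57.3 and 2.12, and pCEC 59.4. The P1 libraries differ 3.39-fold and enclose the D0 level, and the mean rose from D12 by 4.09 on the log2 scale (SE 0.45, adjusted p = 0.000118). P1 and D0 overlap (log2 fold change -0.68, adjusted p = 0.204), although without P1 replicate 1 the difference is -1.54 and is called (adjusted p = 2.3e-05).

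N-cadherin and cadherin-11, cadherins of mesenchymal and neural cells, went down over the interval in which Cdh1 went up. Cdh2 (ENSMUSG00000024304; chromosome 18, 16588877 to 16809246, minus strand) stood at 28.9, 28.8 and 31.2 FPKM in D0 and at 21.6, 21.5 and 22.4 in D7. D12 gave 19.7 and 16.0, P1 2.31 and 2.46, and pCEC 0.109 (9 reads). The P8 libraries gave 0.0151 FPKM (1 read) and 36.1. Without P8, each of these groups lies below the one before it with no overlap. The decrease from D12 to P1 was called (log2 fold change -2.47, SE 0.11, adjusted p = 8.08e-07), and those from D0 to D7 and from D7 to D12 were not past 2-fold (-0.42 and -0.28, adjusted p = 0.00441 and 0.266).

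Cdh11, a cadherin of bone and other mesenchyme (ENSMUSG00000031673; chromosome 8, 102632095 to 102785642, minus strand), was the most abundant of the 5 cadherins in D0, D7, D12 and P8 replicate 2. It stood at 266, 280 and 289 FPKM in D0, at 293, 308 and 290 in D7 and at 260 and 200 in D12. P1 gave 17 and 16.2 FPKM, P8 gave 2.43 and 206, and pCEC 0.229 (18 reads). The P1 values are close to each other and below every D0, D7 and D12 library. It fell by 3.70 on the log2 scale from D12 to P1 (SE 0.12, adjusted p = 1.64e-07). Between D0 and D7 its groups do not overlap but lie close together (log2 fold change 0.09, adjusted p = 0.448), and quantile normalization turns the sign (-0.32). In the pCEC library, 3 other rows, held by other genes and at up to 19.3 FPKM, also gave whole reads for Cdh11, so its level there is less certain than in the other groups.

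Cdh13, or T-cadherin, lacks the intracellular part that binds catenins and sits in the membrane by a lipid anchor (ENSMUSG00000031841; chromosome 8, 118283733 to 119324921, plus strand). It stood at 5.51, 5.88 and 6.74 FPKM in D0 and at 22.0, 23.5 and 21.8 in D7. D12 gave 12.5 and 8.55, P1 34.1 and 15.5, P8 18.8 and 4.91, and pCEC 15.7. D0 is the lowest group except for P8 replicate 2. In P1 and in P8, 1 other row that no gene was placed on also gave whole reads for Cdh13. The increase to D7 was called (log2 fold change 1.74, SE 0.26, adjusted p = 0.000744). The higher level of P1 against D12 was called with a log2 fold change of 1.09 (SE 0.32, adjusted p = 0.0197), but the P1 libraries differ 2.20-fold. That call is lost without P1 replicate 1 (0.54, adjusted p = 0.0543) or without D12 replicate 2 (0.83, adjusted p = 0.124), and with median-of-ratios scaling or quantile normalization (0.98 and 0.88).

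The make-up of the 5 cadherins by summed FPKM changed accordingly. Cdh11 held 71.7 to 73.3% of the sum in D0, 86.1 to 86.6% in D7 and 88.3% in both D12 libraries. Cdh1 held 72.7 and 89.2% in P1, 82.0% in P8 replicate 1 and 79.6% in pCEC. P8 replicate 2 had 82.6% Cdh11, between the D0 and D7 shares, and 0.0259% Cdh1, within the D0 range of 0.00982 to 0.0388%. Its Cdh2 share of 14.5% was above that of every other library (0.00347 to 7.88%). The log2 ratio of Cdh1 to Cdh2 levels lay between -9.65 and -4.73 in D0, D7 and D12 and at 7.25 and 7.59 in P1. It was 14.53 in P8 replicate 1, where Cdh2 rests on 1 read, -9.13 in P8 replicate 2 and 11.40 in pCEC. The summed level itself ran from 226.9 FPKM in D12 replicate 2 to 531.1 in P1 replicate 2. The shares depend on the transcript lengths. By reads instead of FPKM the largest cadherin of each library was the same, but its share moved. Cdh1 then held 67.0 and 86.7% in P1 and 73.8% in pCEC. In pCEC the share of Cdh3 was 23.2% by reads and 16.0% by FPKM. In D7 replicate 1 that of Cdh13 was 3.54% and 6.49%.

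**Figure D2:**
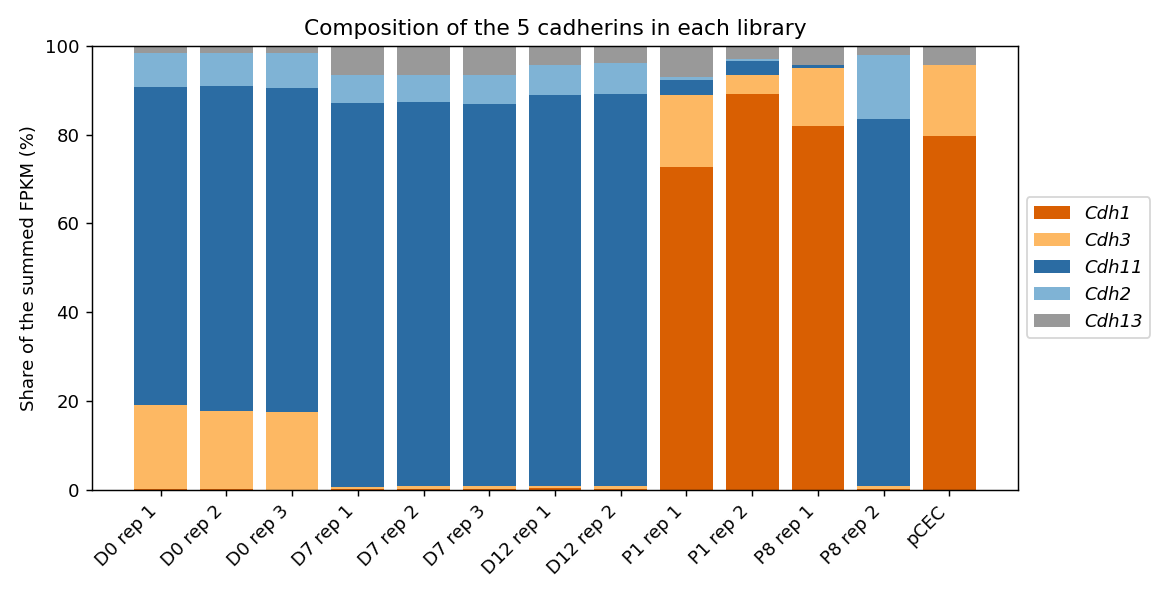
Share of each of the 5 cadherins in their summed FPKM, in percent, for each library. Cdh11 makes up 71.7 to 88.3% in D0, D7 and D12 and 82.6% in P8 replicate 2, and Cdh1 makes up 72.7 to 89.2% in P1, P8 replicate 1 and pCEC.

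Epcam encodes an epithelial surface protein that is not a cadherin and that binds claudin-7 in epithelia (ENSMUSG00000045394; chromosome 17, 87635979 to 87651129, plus strand). It moved with Cdh1. It stood at 0.0255, 0.0408 and 0 FPKM in D0, from 1, 2 and 0 reads, at 0.183, 0.330 and 0.297 in D7 and at 0.846 and 0.377 in D12. P1 gave 76.3 and 416 FPKM, P8 gave 297 and 0.177, and pCEC 188. The P1 libraries are both far above every earlier library but differ 5.45-fold from each other. Epcam rose from D12 to P1 by a log2 fold change of 6.81 (SE 0.63, adjusted p = 4.8e-05). Its transcript length was set on the 3 D0 reads, so its scale is less certain than its relative levels between libraries.

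A promoter window was given for 3 of the 10 genes in the RefSeq table for GRCm38.p6. Epcam and Nrcam are shown because their levels moved in opposite directions between D12 and P1, and because the hexamer CACCTG, an E-box that SNAI and ZEB proteins are known to bind, was searched in them. The sequences are the 250 bases before the RefSeq start, 5′ to 3′ on the gene's strand, with CACCTG or its reverse complement CAGGTG in capitals. The Epcam window is chr17:87635729-87635978 (plus strand) and the Nrcam window is chr12:44328635-44328884 (plus strand).
Epcam: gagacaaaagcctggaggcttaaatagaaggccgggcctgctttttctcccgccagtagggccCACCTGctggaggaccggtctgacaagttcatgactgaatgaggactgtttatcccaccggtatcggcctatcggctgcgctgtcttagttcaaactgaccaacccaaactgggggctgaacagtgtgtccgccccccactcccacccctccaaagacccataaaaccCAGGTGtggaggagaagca
Nrcam: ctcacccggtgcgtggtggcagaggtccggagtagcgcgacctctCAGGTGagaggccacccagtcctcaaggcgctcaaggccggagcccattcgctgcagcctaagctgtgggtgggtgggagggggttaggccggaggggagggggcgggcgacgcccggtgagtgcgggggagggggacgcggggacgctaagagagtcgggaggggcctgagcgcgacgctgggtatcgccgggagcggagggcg
The Epcam window holds 2 matches, which begin 187 and 19 bases before the start, and the Nrcam window holds 1, which begins 205 bases before it. Of all 32851 windows of this length, 17.2% hold at least 1 match and 2.06% hold 2 or more. The Alcam window holds 1 match, and it is not shown because it starts inside the gene as GENCODE M21 annotates it. A match is a description of the letters only.

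Nrcam, a relative of L1 that clusters channels at nodes of Ranvier and guides axons, appeared in D7 and D12 (ENSMUSG00000020598; chromosome 12, 44328885 to 44601964, plus strand). It stood at 0.641, 0.865 and 0.903 FPKM in D0, at 42.1, 41.5 and 42.7 in D7 and at 71.2 and 61.1 in D12. P1 gave 0.150 and 1.06, P8 0 and 8.59, and pCEC 0.0819 (4 reads). The row taken for Nrcam in P8 also fitted 1 gene that was placed on no other row. D7 and D12 lie far above all other libraries and do not overlap each other. Nrcam rose from D0 to D7 by a log2 fold change of 4.58 (SE 0.20, adjusted p = 9.77e-07) and fell by 5.44 from D12 to P1 (SE 0.24, adjusted p = 8.23e-07). Its further increase from D7 to D12 was not called (0.64, adjusted p = 0.253). The summed level of 8 neuron markers was 25.8 to 28.2 FPKM in D0, 110 to 119 in D7, 183 and 180 in D12, and 2.48 and 4.31 in P1, but the markers did not move together. The neurofilament gene Nefm stood at 0.0356 to 0.119 FPKM in D0, 52.2 to 60.8 in D7 and 110 and 101 in D12, and with Nefl it makes up most of the sum in D7 and D12. Tubb3, a neuronal tubulin, ran the other way, at 24.3 to 26.2 FPKM in D0, 10.7 to 13 in D7 and 7.47 and 8.48 in D12. Stmn2 was at 7.68 to 8.18 FPKM in D7 and at 1.78 and 2.55 in D12, and Elavl4 was below 1 FPKM in every library. The part of these markers in the result was not tested.

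Ncam1, which carries polysialic acid in developing nervous tissue, ran against Nrcam from D0 to D7 (ENSMUSG00000039542; chromosome 9, 49502136 to 49798925, minus strand). It stood at 59.3, 56.4 and 54.2 FPKM in D0, 18.4, 18.1 and 19.8 in D7 and 10.3 and 13.2 in D12. P1 gave 4.98 and 5.80, P8 13.8 and 22.6, and pCEC 0.974. From D0 through P1 each group lies below the one before it with no overlap, and both P8 libraries lie above both P1 libraries. Ncam1 fell by 1.55 on the log2 scale from D0 to D7 (SE 0.10, adjusted p = 9.3e-06). The decreases from D7 to D12 (-0.64, adjusted p = 0.0349) and from D12 to P1 (-0.99, adjusted p = 0.000297) were past the p threshold but short of 2-fold. The last of these is called with voom (-1.14), median-of-ratios scaling (-1.08), quantile normalization (-1.31) or a pseudocount of 0.1 (-1.10), and without D12 replicate 1 (-1.15) or P1 replicate 2 (-1.08), so it lies at the limit of the call.

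Alcam, which binds itself and CD6 and is expressed in many neural and epithelial cells, stayed between 10.8 and 87.7 FPKM in every library (ENSMUSG00000022636; chromosome 16, 52248996 to 52454074, minus strand). It stood at 22.7, 24.1 and 22.8 FPKM in D0, 38.7, 36.3 and 38.3 in D7 and 50.0 and 40.2 in D12. P1 gave 40.9 and 55.1, P8 gave 23.7 and 87.7 and pCEC 10.8. P1 overlaps D12, and pCEC lies below every other library. P1 was above D0 with a log2 fold change of 1.00 (SE 0.14, adjusted p = 0.000459), right at the 2-fold limit, and P1 did not differ from D12 past the threshold (0.08, adjusted p = 0.663). The P1 call against D0 is lost without P1 replicate 2 (0.79) and, by a margin of the fold alone, without D0 replicate 1 or 3 (0.99 each).

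By FPKM, Thy1 was the most abundant of the 10 genes in D0, D7 and D12 and in P8 replicate 2 (ENSMUSG00000032011; chromosome 9, 44043384 to 44048579, plus strand). That order depends on its short length of 828 bases, against 3800 for Cdh11. By reads, Cdh11 was above Thy1 in every D7 and D12 library and in P8 replicate 2 (17296 against 12865 reads). Levels of Thy1 are given here as FPKM. It stood at 1484, 1437 and 1331 FPKM in D0, 991, 996 and 974 in D7 and 509 and 564 in D12. P1 gave 9.89 and 24.8, P8 0 and 702, and pCEC 0.525. The groups from D0 to P1 descend without overlap. From D12 to P1 Thy1 fell by 5 on the log2 scale (SE 0.33, adjusted p = 6.33e-06), while the steps to D7 (-0.52, adjusted p = 0.13) and D12 (-0.88, adjusted p = 0.237) were not called. The pCEC value rests on 9 reads in a row that also fitted the lengths of 4 other genes. The rows taken for Thy1 in D7 and D12 each fitted 1 gene that was placed on no other row. The summed level of 8 fibroblast markers, made up mostly of collagens and Postn in D0, was 20800 to 21700 FPKM there, 2350 in each D7 library, 1570 and 1340 in D12, and 464 and 1080 in P1. Not all of them followed Thy1 before P1. The receptor gene Pdgfra stood at 163 to 189 FPKM in D0, 357 to 384 in D7, 455 and 376 in D12 and 6.03 and 27.8 in P1. Dcn, a small matrix proteoglycan, stood at 99.2 to 113, 118 to 123, 142 and 130, and 23.4 and 177 FPKM in the same groups. The part of these markers in the result was not tested.

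The spread behind these calls depends on whether the P8 libraries enter the fit. With all 13 libraries sharing it, 4 of the 10 genes are called between P1 and D12 (27.5% of all genes), namely Cdh1, Cdh3, Epcam and Nrcam. The calls lost are Cdh2 (adjusted p = 0.138), Cdh11 (0.0631), Cdh13 (0.124) and Thy1 (0.107), at the same fold changes. Between P1 and D0, 6 of 10 are called in that fit (19.5% of all genes), without Cdh2 and Alcam (adjusted p = 0.0644 and 0.107). For D7 against D0 the count is 4 in both fits (22.2% of all genes in the fit of 13), and for D12 against D7 it is 0 (0.317%).

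The pCEC library shared the high Cdh1 and Epcam of P1 and had lower levels of 5 of the other genes. Against P1, 5 of the 10 genes were called in pCEC, all lower, where 8.35% of all genes were called and 4.05% were lower. These were Cdh11 (log2 fold change -3.84, SE 0.14, adjusted p = 1.7e-06), Thy1 (-3.46, SE 0.40, adjusted p = 0.001), Alcam (-2.05, SE 0.18, adjusted p = 0.000268), Ncam1 (-1.69, SE 0.16, adjusted p = 0.000316) and Cdh2 (-1.61, SE 0.14, adjusted p = 0.000205). Cdh1 was 295 against 412 FPKM (-0.47, SE 0.25, adjusted p = 0.252) and Epcam 188 against 246 (adjusted p = 0.979), and a difference was not shown for either. Epcam lay between the P1 libraries, and its log2 fold change of 0.08 (SE 0.78) has the opposite sign to the difference of means. pCEC is assumed to vary like the other groups. The assignment of rows is also less certain in pCEC for more of the genes than Cdh11 and Thy1. Another row, held by another gene, gave whole reads there for Cdh1 (at 6.90 FPKM), Cdh3 (30.5) and Epcam (94.5). The rows taken for Cdh1 and Ncam1 in pCEC also fitted 1 and 2 genes that were placed on no other row. With all 13 libraries in the fit, Ncam1 alone stays called (2.78% of all genes), and the others have adjusted p between 0.0986 (Alcam) and 0.668 (Cdh2).

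The P1 libraries also decide some of these values. Without P1 replicate 1, Cdh3 is higher in pCEC (1.33, adjusted p = 0.000294) and Epcam lower (-1.14, adjusted p = 0.00388). Without P1 replicate 2, Epcam is higher in pCEC (1.29, adjusted p = 0.00307) and Cdh13 lower (-1.07, adjusted p = 0.0135). Each leaves 7 genes called, against 5 with both libraries, while the share of all genes called goes from 8.35% to 20.2% without P1 replicate 1 and to 13.3% without P1 replicate 2. Against D0, pCEC had 8 of 10 genes called (30.8% of all genes): Cdh1, Cdh13 and Epcam higher, and Cdh2, Cdh11, Ncam1, Alcam and Thy1 lower. In the fit of all 13 libraries Alcam (adjusted p = 0.176) and Cdh13 (0.148) are lost, leaving 6 (22.9% of all genes). The Cdh13 call is also lost without D0 replicate 1 (1.20, adjusted p = 0.0561) or without D0 replicate 2 (1.24, adjusted p = 0.053).

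**Figure D3:**
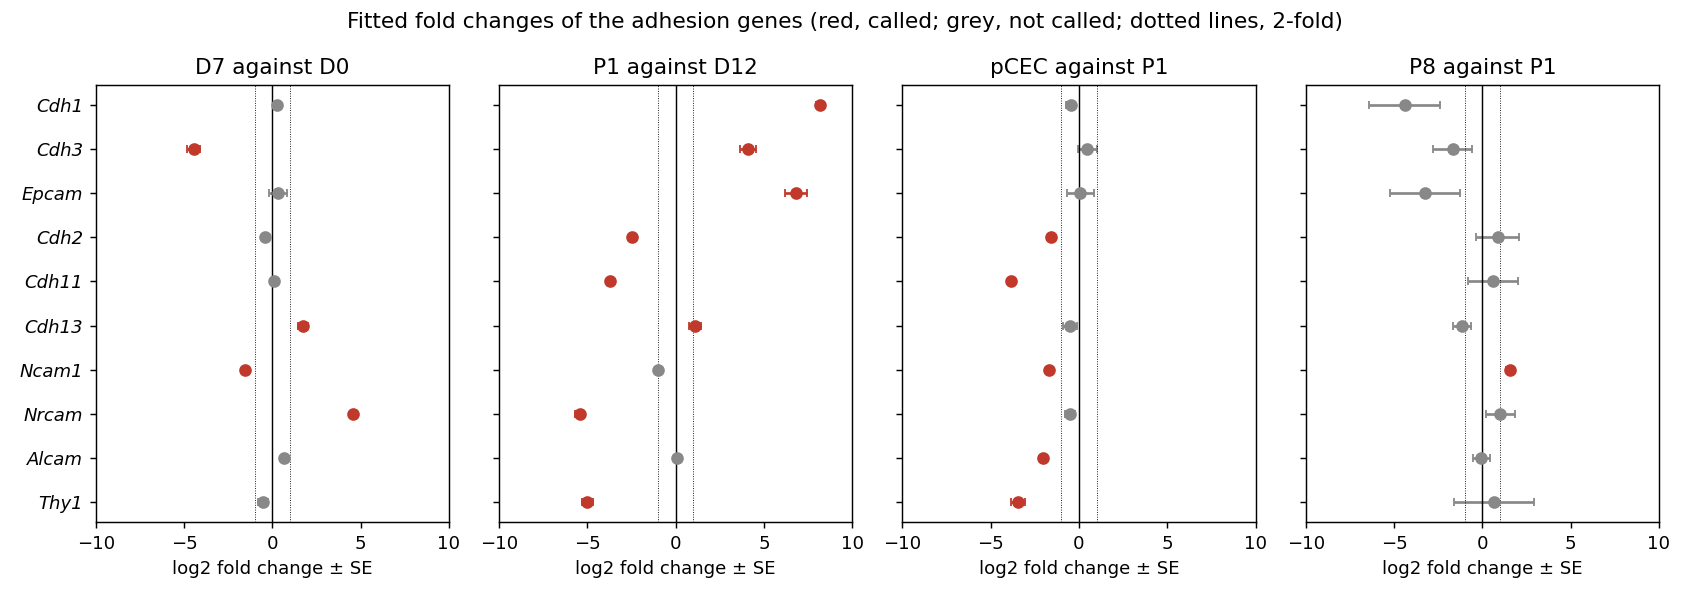
Log2 fold changes with standard errors of the 10 genes in 4 comparisons, on the log2(FPKM + 1) scale; red points are called, grey points are not, and dotted lines mark 2-fold. The wide bars of P8 against P1 come with P8 libraries that differ up to 5550-fold (Cdh1), and Ncam1 is the gene called there.

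P8 against P1 asks whether the adhesion genes of the induced cells kept their levels between those labels, and the answer differs between the P8 libraries. Of the 10 genes 1 was called (1.41% of all genes were, 0.381% higher), Ncam1, which was higher in P8 with a log2 fold change of 1.55 (SE 0.22, adjusted p = 0.00913). The P8 libraries differed 5550-fold in Cdh1, 2380-fold in Cdh2, 1680-fold in Epcam, 84.5-fold in Cdh11 and 27.0-fold in Cdh3. Thy1 was at least 3210-fold and Nrcam at least 112-fold higher in P8 replicate 2, taking 3 reads as the limit a count of 0 allows in P8 replicate 1. Ncam1 differed least between them, 1.63-fold. With P8 replicate 1 alone, assumed to vary like the other groups, 4 genes differ from P1 (7.71% of all genes): Thy1 (-4.07), Cdh11 (-2.36) and Cdh2 (-1.74) lower and Ncam1 (1.22) higher. With P8 replicate 2 alone, on the same assumption, 9 differ (22.2% of all genes), with Cdh1 (-8.58), Epcam (-7.25), Cdh3 (-3.80) and Cdh13 (-2.03) lower and Thy1 (5.39), Cdh11 (3.55), Cdh2 (3.46), Nrcam (2.64) and Ncam1 (1.89) higher. Cdh2, Cdh11 and Thy1 thus differ from P1 in opposite directions in the P8 libraries. The marker sums given above differ between the same libraries, and their part in the result was not tested.

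Transcription factors known to repress Cdh1, among them the SNAI, ZEB and TWIST families, were lower in P1. Of 12 on the list 10 were tested, and 9 were lower and 0 higher in P1 than in D12, a comparison in which 32.8% of all genes were called. Their median log2 fold change was -2.97, beside 0.11 over all genes. Twist1, a mesoderm and neural crest factor, fell from 1080 ± 73.5 FPKM (SD, n = 2) in D12 to 8.19 ± 2.66 (n = 2) in P1 (log2 fold change -6.91, SE 0.23, adjusted p = 2.01e-07). Its relative Twist2 fell by 5.10 on the log2 scale and Snai1 fell by 5.04. In D7 against D0, where Cdh1 was not called, 5 of the 10 were higher and 0 lower (25.2% of all genes were called), and Twist1 went up from 43.6 ± 9.78 to 903 ± 28.4 FPKM (n = 3 each; a log2 fold change 4.36, adjusted p = 8.98e-07).

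Factors that sustain epithelial genes, including the grainyhead-like, OVOL and ESRP families, ran the other way. Of 14 tested, 13 were higher and 0 lower in P1 than in D12 (32.8% of all genes were called), with a median log2 fold change of 3.71. Ehf, an epithelial ETS factor, rose from 0.0932 ± 0.0759 to 399 ± 183 FPKM (by a log2 fold change 8.44, adjusted p = 1.66e-07), Elf3 rose by 6.80 and the splicing regulator Esrp2 by 5.45 on the log2 scale. D7 had 3 higher than D0 (Klf5, Grhl3 and Grhl1) and 1 lower, a share near the 25.2% of all genes called there. In pCEC, 14 of 14 were higher than in D0 (30.8% of all genes were called), and against P1 (8.35%) 1 of 14 was higher, Elf3 (393 against 143 FPKM, log2 fold change 1.5, adjusted p = 0.00957). In P8 replicate 2 Ehf stood at 0.0279 FPKM and Elf3 at 0.

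Catenins and other partners that anchor cadherins to actin were mostly higher in P1 than in D12. Of 14 tested, 10 were higher and 1 lower, beside 32.8% of all genes called, with a median log2 fold change of 1.59. Plakoglobin (Jup), shared by adherens junctions and desmosomes, rose from 51.3 ± 5.61 to 736 ± 181 FPKM (by a log2 fold change 3.80, adjusted p = 5.87e-07), and Plekha7, of the apical adherens junction, rose from 4.98 ± 0.705 to 78.1 ± 14.1 (3.72, adjusted p = 4.35e-07). Vinculin (Vcl) fell by 3.57 from D0 to D7 and rose by 3.31 from D12 to P1. D7 had 4 of the 14 lower than D0 and 1 higher (25.2% of all genes were called). Jup was the 1 gene of the 14 called between pCEC and P1 (8.35% of all genes), at 314 against 736 FPKM (log2 fold change -1.21, adjusted p = 0.00477).

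All 7 genes listed with Epcam were tested, and 7 of 7 were higher in P1 than in D12 (32.8% of all genes were called), with a median log2 fold change of 4.87. Cldn7, which encodes claudin-7, rose by 6.04 on the log2 scale (SE 0.65, adjusted p = 0.000109) and the protease inhibitor Spint2 rose by 4.92 (SE 0.14, adjusted p = 1.06e-07). Of the 7, Spint1 and St14 (2 genes) were already higher in D7 than in D0, near the 25.2% of all genes called. Between pCEC and P1, 1 of the 7 was called (8.35% of all genes), the tetraspanin Tspan8 (1.66 against 14.0 FPKM, -2.49, adjusted p = 2.98e-05).

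The enzymes that polysialylate NCAM and its signalling partners were mostly lower in P1. Of 8 tested, 6 were lower and 0 higher in P1 than in D12 (median log2 fold change -2.23), beside 32.8% of all genes called. Gap43, a growth-cone protein, stood at 31.3 ± 0.478 FPKM in D0 and rose to 618 ± 14.1 at D7 (n = 3 each; log2 fold change 4.26, adjusted p = 9.4e-08). It fell from 410 ± 46.3 in D12 to 0.184 ± 0.260 in P1 (n = 2 each; -8.45, adjusted p = 1.18e-08). St8sia2, the polysialyltransferase of the developing brain, rose by 1.08 to D7, over the interval in which Ncam1 itself fell, and fell by 3.32 from D12 to P1. Gfra1, a receptor for GDNF, fell by 3.32 from D0 to D7 and fell by 2.96 from D12 to P1.

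Other neural adhesion genes of the immunoglobulin family split. Of 28 listed 21 were tested. From D0 to D7, 8 were higher and 3 lower (25.2% of all genes were called), led by Ntm (0.374 to 25.7 FPKM, log2 fold change 4.29, adjusted p = 1.58e-07) and Cadm2 (0.419 to 14.0, log2 fold change 3.40, adjusted p = 2.93e-07) upward and Mcam (106 to 12.4, log2 fold change -3, adjusted p = 1.43e-05) downward. From D7 to D12, 2 were lower and 0 higher, Ntm and Lsamp (0.704% of all genes). Between D12 and P1, 7 were higher and 7 lower (32.8% of all genes), Iglon5 (-4.50) and Cadm2 (-4.05) lower and Bcam, a laminin-binding protein, higher (11.7 to 153 FPKM, log2 fold change 3.60, adjusted p = 2.34e-07). Of 9 other cadherins tested from 22 listed, 1 was higher and 3 lower in P1 than in D12, not far from the 32.8% of all genes, among them Cdh4 (9.48 and 0.0902 FPKM, log2 fold change -3.26, adjusted p = 5.28e-07), a close relative of Cdh2.

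**Figure D4:**
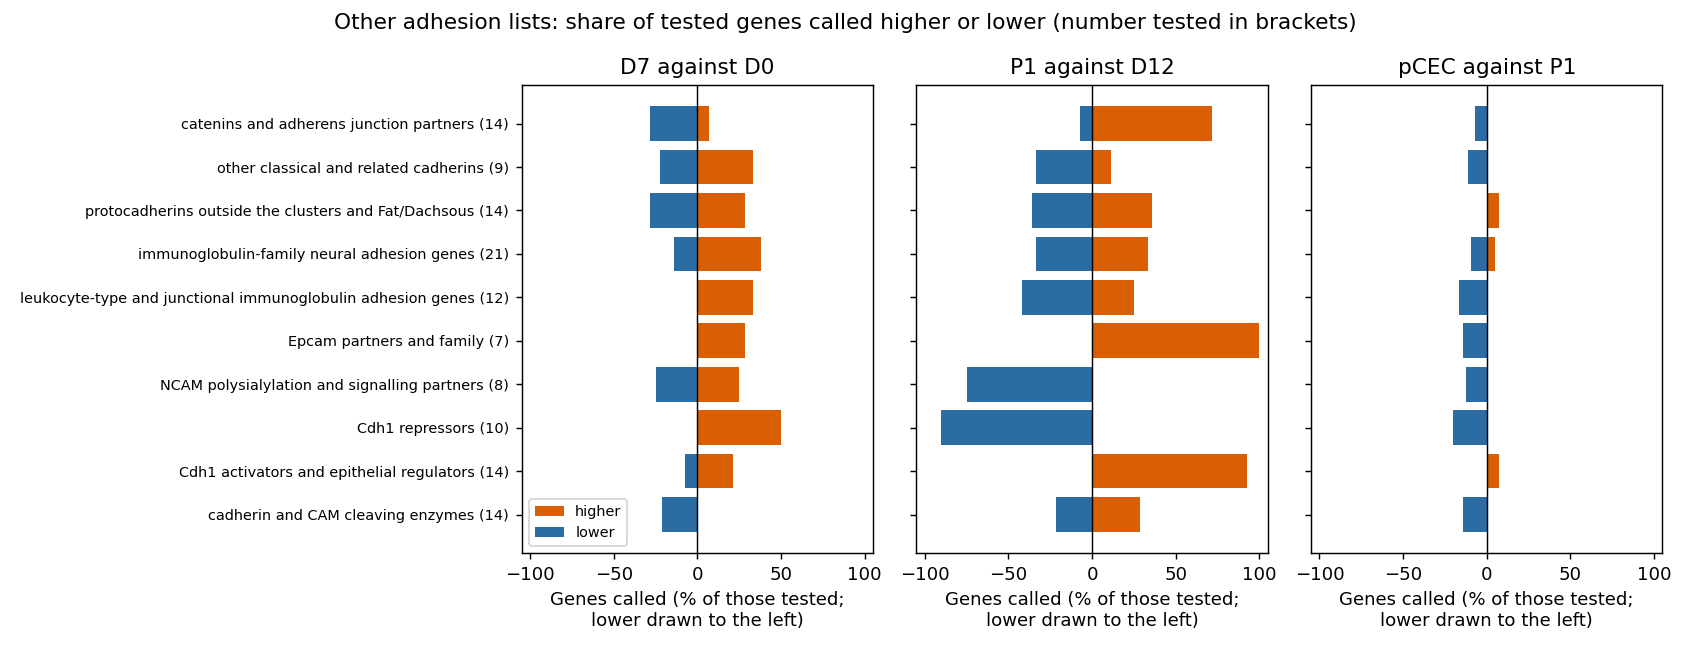
Share of the tested genes of each list that were called higher (right, orange) or lower (left, blue), in percent, for 3 comparisons, with the number tested in brackets. In P1 against D12, 13 of 14 epithelial regulators and 7 of 7 Epcam partners were higher, and 9 of 10 Cdh1 repressors and 6 of 8 NCAM partners were lower.

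The genes whose log2(FPKM + 1) was most like that of Cdh1 over the 13 libraries, among 10689 others that reach 10 FPKM, were Lad1, Gabrp, Dsg3, Kdf1 and Foxq1 (Pearson r 0.998 to 0.999). For Cdh2 they were Zeb1, P3h3, Vim, Tcaf1 and Thy1 (0.989 to 0.993), and for Ncam1 Plppr3, Tgfb1i1, Copz2, Arfgap1 and Hoxc9 (0.953 to 0.967). The libraries form separate sets of high and low samples, so these values describe the shared step and its position. By Spearman correlation 1, 0 and 1 of the 5 genes remain for Cdh1, Cdh2 and Ncam1, and without P8 replicate 2 4, 2 and 2 remain.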

How the data were processed

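Gene expression was measured by RNA sequencing (Illumina TruSeq libraries from total RNA, per the labels' protocols) in 13 libraries. The deposited table, made by the authors, holds FPKM values, and depth was known through the recovered library totals. The submitters' processing notes list the builds mm8 and mm10, and Bowtie 0.12.2, with no role given. All 13 value columns were used and 0 were not used. Gene positions are those of GENCODE M21 (GRCm38), the reference used here.

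The IDs follow the row order of D0. Rows of the other groups were assigned to genes from the order in which a hash table of 131072 slots lists its keys, together with a check that FPKM times transcript length times library total gives whole reads within the rounding of the printed value. Mean GENCODE M21 transcript lengths fitted 95.2% of the 25376 genes that had D0 reads, and lengths of 1207 genes (Epcam among them) were set on D0. Of lines with reads, 98.05 to 98.53% were placed. With D0 IDs hidden, 99.629% of genes placed were right, and 99.82% of those at 1 FPKM or more. With lengths not set on D0 this last share was 93.33%. The check covers D0 alone, whose row order also set the expected rows, so accuracy in the other groups was not measured. Left out were 6843 unresolved genes, 185 of them at 1 FPKM or more, and 131 genes at 0 in 1 group and at 1 FPKM or more in all others.

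Genes at 1 FPKM or more in at least 1 library were tested on log2(FPKM + 1), with limma 3.58.1 (trended eBayes, R 4.3.3; checked on simulated data). The fit held 1 mean per group over 11 libraries, without P8 (6 residual degrees of freedom), and for P8 against P1 over all 13 libraries (7). A call needed a Benjamini-Hochberg adjusted p under 0.05 over all 17328 genes and a 2-fold difference. Alternatives changed the libraries in the fit, the pseudocount, filters, scaling, the test (voom on recovered reads), the replicate block and each replicate in turn.

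All 10 genes are described. From each list up to 3 called genes with the largest log2 fold change are named, and for Cdh1, Cdh2 and Ncam1 the 5 most similar genes. A gene that this rule would name is not reported here. The members, lists and the choice to leave P8 out of the main fit were made with earlier results of these data known. Floors take 3 reads, and intervals and floors cover counting error only.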

Additional observations from a re-analysis of the deposited data

How the results depend on the processing

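Of 1100 recomputed fold changes of the 10 genes, 1013 kept their direction and side of the threshold, 36 lost a call, 27 gained one and 24 changed sign. With all 13 libraries in the fit, the number of the 10 genes called was 4 for P1 against D12 and 1 for pCEC against P1, in place of 8 and 5. The shares of all genes called were then 27.5% and 2.78%, in place of 32.8% and 8.35%. Only the 2 groups compared gave 0 for pCEC against P1 and 0 for P8 against P1, with 1 and 2 residual degrees of freedom and 0 calls among all genes. A pseudocount of 5 gave 3 for pCEC against P1 (681 of all genes), and no fold limit gave 1 for D12 against D7 (429 of all genes). Leaving out each replicate gave 1 to 9 for P8 against P1 (9 without P8 replicate 1, 4 without P8 replicate 2), 7 for pCEC against P1, and 7 to 9 for P1 against D12 and against D0.

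A pseudocount of 0.1 gains calls in D7 against D0 for Cdh1 (1.11, adjusted p = 0.0482) and Epcam (1.59, 0.0481), and quantile normalization for Thy1 (-1.03, 0.0238).

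Sign changes, as log2 fold changes, were these. In P8 against P1, Cdh2 and Thy1 became -0.28 and -0.91 with a pseudocount of 0.1 and -0.89 and -0.74 with voom. Alcam became -0.023 in P1 against D12 with median-of-ratios scaling, and 0.030 and 0.024 in P8 against P1 with that scaling and quantile normalization. Cdh11 became -0.32 in D7 against D0 with quantile normalization. Leaving out each replicate gave, in D12 against D7, -0.13 to 0.43 for Cdh1, and in P1 against D12, -0.13 to 0.29 for Alcam (-0.07 without D12 replicate 2). In P1 against D0 it gave -0.65 to 0.20 for Nrcam and -1.54 to 0.18 for Cdh3, and in pCEC against P1, -1.07 to 0.018 for Cdh13, -1.14 to 1.29 for Epcam and -0.39 to 1.33 for Cdh3. In P8 against P1 it gave -0.97 to 0.87 for Alcam (0.16 without P1 replicate 2), -1.74 to 3.46 for Cdh2, -3.80 to 0.42 for Cdh3, -2.36 to 3.55 for Cdh11, -7.25 to 0.73 for Epcam, -0.62 to 2.64 for Nrcam and -4.07 to 5.39 for Thy1, each extreme without a P8 replicate. The cause was not tested beyond the libraries named.

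Of all genes, 4362 were called in D7 against D0, 122 in D12 against D7, 5675 in P1 against D12, 4306 in P1 against D0, 1447 in pCEC against P1, 5335 in pCEC against D0 and 245 in P8 against P1. A pseudocount of 5 gave 2288, 39, 3377, 2532, 681, 3222 and 126. No fold limit gave 10023, 429, 10098, 8314, 3130 and 8506 for the comparisons other than P8 against P1. All 13 libraries gave 55 in D12 against D7 and 481 in pCEC against P1, and only the 2 groups gave 3556 in P1 against D12. Genes with reads in every group gave 50 in D12 against D7 and 150 in P8 against P1, and a filter at 5 FPKM gave 162 there. Leaving out a P1 replicate gave 2299 and 3503 in pCEC against P1, and leaving out a P1 or P8 replicate gave 658 to 3845 in P8 against P1. Quantile normalization turned the split in P8 against P1 from 66 higher and 179 lower to 98 and 133, and moved the median of all genes by -0.119 in P1 against D12, -0.11 in P1 against D0 and 0.107 in P8 against P1.

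Correlations of same-numbered libraries ran from -0.235 to 0.178. They cannot show whether the replicate numbers pair the samples. Between groups of 2 libraries both numbers gave the same value, and differently numbered libraries were not set beside them. With the replicate block, 0 of the 10 genes were called in D12 against D7 (61 of all genes) and 1 in P8 against P1 (104 of all genes). The number of the 10 called in D7 against D0, P1 against D12 and P1 against D0 was also as without it. pCEC carries no number. Depth limits genes at a few reads, such as Cdh1 and Epcam in D0 and Nrcam and Thy1 in pCEC.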

Other observations

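Protocadherins and their giant relatives split between D12 and P1: of 14 tested, 5 were higher and 5 lower, beside 32.8% of all genes called. Celsr2 and Celsr1, cadherins of planar cell polarity, rose by 4.94 (SE 0.36, adjusted p = 1.17e-05) and 4.34 (SE 0.14, adjusted p = 1.67e-07) on the log2 scale, and Fat2 rose from 0.00427 to 15.3 FPKM (3.93, adjusted p = 9.86e-06). From D0 to D7, 4 were higher and 4 lower (25.2% of all genes were called), with Pcdh10 rising from 0.49 to 11.8 FPKM (3.11, adjusted p = 7.55e-07) and Pcdh18 falling from 67.3 to 13.9 (-2.20, adjusted p = 3.07e-05).

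Of 12 junctional and leukocyte-type immunoglobulin genes tested, 3 were higher and 5 lower in P1 than in D12, beside 32.8% of all genes called. Nectin4 rose from 0.399 to 63.6 FPKM (5.44, adjusted p = 2.82e-06) and F11r, the tight-junction protein JAM-A, from 28.5 to 298 (3.34, adjusted p = 2.44e-07), while its relative Jam2 fell from 31.2 to 3.44 (-2.94, adjusted p = 5.17e-05). Of 14 proteases that cleave adhesion proteins, 4 were higher and 3 lower in P1 than in D12, beside the same 32.8%. Adam8 rose from 10.7 to 257 FPKM (4.33, adjusted p = 1.4e-05) and Adam19 fell from 36.9 to 6.56 (-2.53, adjusted p = 0.00139).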
